A study of Mus musculus with 8 samples.

Results

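The constant genes of the αβ and the γδ T cell receptor (TCR) were described in mouse regulatory T cells (Tregs), from a table of counts per gene. The members were the rows of the table that carried the symbols Trac, Trbc1, Trbc2, Trdc, Tcrg-C1, Tcrg-C2 and Tcrg-C4. All 7 were found among the 28239 rows, and all 7 passed the filter of at least 2 CPM (counts scaled to a common library size) in at least 4 libraries, as did 12700 rows in all. They were chosen with the difference between the groups already known, so that difference is given for them as a description without a test. Naïve CD4+ T cells were taken by negative selection from the spleens of C57BL/6 mice of both sexes, aged 10 to 12 weeks, and cultured toward Tregs for 2 days with 100 U/ml of IL-2, 5 ng/ml of TGF-β and activating CD3/CD28 beads, 1 for each cell. One group of 4 libraries was labelled WT and the other group of 4 libraries was labelled Alox15-/-, for mice without the lipoxygenase gene Alox15. The study asked what this enzyme does in Treg differentiation, and RNA was read by MACE-seq, an assay that counts transcripts by tags near their 3′ ends. According to the methods the wild-type mice came from Charles River and the deficient mice from The Jackson Laboratory, so genotype and colony of origin cannot be told apart. The study counts the replicates of its deficient group as mice, but no label ties a library of either group to a mouse or a culture, so any p-value measures the spread between these libraries, part of which may be technical.

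A T cell carries one of 2 kinds of receptor. The αβ receptor pairs a chain built on the constant gene Trac with a chain built on Trbc1 or Trbc2, and it is the receptor of CD4+ T cells. The γδ receptor pairs a chain built on Trdc with a chain built on a Tcrg constant gene, and it marks a separate lineage that leaves the thymus mostly without CD4 or CD8 and is found in skin, gut and, as a minor population, in spleen. Both receptors need chains of the CD3 complex to reach the cell surface. The δ segments lie inside the α locus and are usually deleted from a chromosome when the α chain rearranges, whereas γ genes may remain and be transcribed in αβ T cells.

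Because several of these genes are near copies, their sequences bear on how far tags can be assigned to one of them. The last coding exon with at least 100 coding bases, which carries the region around the membrane-spanning segment, is printed for each, 5′ to 3′ on the gene's own strand, from the GENCODE transcripts of GRCm38. Capitals mark bases that differ between the members of a family, and Trac and Trdc, which have no copy here, stand in lower case. The exons are chr14:54222991-54223094 on the plus strand for Trac and chr14:54144203-54144315 on the plus strand for Trdc.
Trac: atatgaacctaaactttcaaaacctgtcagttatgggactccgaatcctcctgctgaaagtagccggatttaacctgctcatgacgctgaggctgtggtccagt
Trdc: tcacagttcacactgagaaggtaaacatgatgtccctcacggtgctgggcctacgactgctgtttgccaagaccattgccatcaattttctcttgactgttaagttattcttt
The β exons are chr6:41539229-41539335 and chr6:41547772-41547878, both on the plus strand, and they differed at 15 of 107 bases (86.0% identical).
Trbc1: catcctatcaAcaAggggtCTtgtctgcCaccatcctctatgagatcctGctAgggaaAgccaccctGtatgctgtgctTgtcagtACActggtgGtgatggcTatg
Trbc2: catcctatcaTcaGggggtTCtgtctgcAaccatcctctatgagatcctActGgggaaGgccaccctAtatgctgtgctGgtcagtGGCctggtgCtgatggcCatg
The γ exons are chr13:19216476-19216615 on the plus strand, chr13:19305063-19305202 on the minus strand and chr13:19352201-19352340 on the plus strand. Tcrg-C1 and Tcrg-C2 differed at 4 of 140 bases (97.1% identical), while Tcrg-C4 differed from each of them at 44 (68.6% identical).
Tcrg-C1: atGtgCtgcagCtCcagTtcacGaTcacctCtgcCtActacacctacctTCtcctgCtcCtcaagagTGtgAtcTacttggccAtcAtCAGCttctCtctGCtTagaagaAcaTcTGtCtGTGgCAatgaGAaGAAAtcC
Tcrg-C2: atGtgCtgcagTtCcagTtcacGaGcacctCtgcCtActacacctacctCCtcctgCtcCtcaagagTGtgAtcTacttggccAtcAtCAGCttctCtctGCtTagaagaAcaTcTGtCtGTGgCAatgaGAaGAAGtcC
Tcrg-C4: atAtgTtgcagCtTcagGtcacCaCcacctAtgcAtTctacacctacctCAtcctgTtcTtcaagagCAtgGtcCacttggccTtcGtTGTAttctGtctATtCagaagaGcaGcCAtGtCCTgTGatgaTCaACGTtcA

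Near the 3′ end, where this assay reads, the copies were easier to tell apart. Trbc1 and Trbc2 shared 41.1% and 44.0% of the 50-base windows of their whole transcripts, but 0 of the 251 windows in their last 300 bases. Tcrg-C1 and Tcrg-C2 shared 21.9% of the windows in their last 300 bases with each other, so counts on these 2 genes are uncertain where tags could not be split. Tcrg-C4 and Trac shared no window with another transcript. Trdc shared 62.9% of the windows in its last 300 bases with Trdv5, a δ variable gene annotated on the opposite strand of the same stretch, which was not analysed here. Whether the counting used the strand is not given in the sources used here, so tags from Trdc and from the genes antisense to it cannot be told apart. The antisense gene Gm43434, which also overlaps Trdc and is named here after its values were seen, held 9, 6, 6 and 14 counts in the libraries labelled Alox15-/- and 4, 2, 4 and 1 in those labelled WT, against 75 to 381 counts on Trdc.

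In GRCm38 the genes lie at 3 loci. Trdc (ENSMUSG00000104876.1) spans chr14:54142851-54148868 and Trac (ENSMUSG00000076928.5) spans chr14:54220521-54224206, both on the plus strand of the combined α and δ locus. Trbc1 (ENSMUSG00000076490.6, chr6:41538218-41539881) and Trbc2 (ENSMUSG00000076498.2, chr6:41546730-41548352) follow each other on the plus strand. Tcrg-C1 (ENSMUSG00000076749.2, chr13:19214103-19217024) and Tcrg-C4 (ENSMUSG00000076757.9, chr13:19344558-19352756) are on the plus strand, with Tcrg-C2 (ENSMUSG00000076752.2, chr13:19304649-19307551) between them on the minus strand.

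The total count per library was 3723151 to 6952596 under the label Alox15-/- and 4810125 to 9538962 under the label WT. Levels are CPM scaled by the TMM method of edgeR. The targeted gene Alox15 went against the labels, with 67.2 ± 3.18 CPM under the label Alox15-/- against 5.31 ± 3.61 CPM under WT (SD, n = 4). MACE-seq reads the 3′ end, and the deleted part of the gene is not given in the sources used here, so this level checks neither label, and each direction below is that of the libraries as labelled. The labelled cell type was present by its markers: Cd4 was at 268.7 ± 40.0 and 335.9 ± 11.1 CPM and Foxp3, the Treg transcription factor, at 93.4 ± 17.1 and 124.9 ± 47.4 CPM (SD, n = 4), first for the label Alox15-/- and then for WT. Neither Cd4 (adjusted p = 0.357) nor Foxp3 (adjusted p = 0.655) passed edgeR's quasi-likelihood test with Benjamini-Hochberg adjustment over all tested genes. Markers of erythroid cells, mast cells, basophils, eosinophils and myeloid cells summed to more in each of the 4 libraries labelled Alox15-/- than in any WT library, as given with the results they touch.

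The αβ constant genes were abundant in every library and their levels overlapped between the groups. Trac, the only constant gene of the α chain, was at 463.0, 399.8, 434.6 and 436.9 CPM in the libraries labelled Alox15-/- 1 to 4 and at 459.4, 476.2, 429.0 and 616.0 CPM in WT 1 to 4. WT 4 was the highest library, and the other 3 WT libraries lay in or near the range of those labelled Alox15-/-. The group means were 433.6 ± 25.9 and 495.1 ± 82.9 CPM (SD, n = 4), a log2 fold change of -0.19 (standard error 0.114).

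Trbc1 and Trbc2 are the alternative constant genes of the β chain, and a T cell uses one or the other. Trbc1 was at 384.3, 414.4, 397.5 and 495.2 CPM in the libraries labelled Alox15-/- and at 417.5, 413.2, 443.9 and 465.5 CPM in those labelled WT. Trbc2 was at 668.2, 638.6, 749.1 and 892.1 CPM in the libraries labelled Alox15-/- and at 685.8, 678.8, 727.2 and 710.6 CPM in those labelled WT. The libraries labelled Alox15-/- held both the lowest and the highest value of each β gene, with replicate 4 the highest for both. The log2 fold change was -0.04 (standard error 0.10) for Trbc1 and 0.07 (standard error 0.108) for Trbc2.

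Summed over Trac, Trbc1 and Trbc2, the αβ constant genes stood at 1593 ± 163 CPM under the label Alox15-/- and 1631 ± 109 CPM under WT (SD, n = 4). Trbc1 took 34.7% to 39.4% of the counts on the β pair in the libraries labelled Alox15-/-, with a mean of 36.6% ± 2.01 (SD, n = 4). In the WT libraries its share was 37.8% to 39.6%, with a mean of 38.3% ± 0.859 (SD, n = 4). These ranges overlapped.

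The γδ constant genes were higher in every library labelled Alox15-/- than in any WT library. Trdc, the single constant gene of the δ chain, was at 75.3, 70.6, 72.1 and 44.6 CPM in the libraries labelled Alox15-/- 1 to 4 and at 17.4, 12.01, 22.5 and 21.6 CPM in WT 1 to 4. The groups did not overlap, and library 4 was the lowest of those labelled Alox15-/-, apart from the other 3. The means were 65.6 ± 14.2 and 18.4 ± 4.79 CPM (SD, n = 4), a log2 fold change of 1.82 (standard error 0.197) or 3.54-fold, resting on 260 to 381 counts a library in the libraries labelled Alox15-/- and 75 to 223 in those labelled WT.

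Tcrg-C1, the constant gene of the γ chains used by many γδ T cells of skin, gut and lymphoid organs, was the least counted member. It was at 8.21, 13.6, 8.70 and 5.90 CPM in the libraries labelled Alox15-/- and at 2.35, 1.76, 2.32 and 1.68 CPM in those labelled WT. Only 8 to 23 counts stood behind the WT values and 34 to 50 behind the others, so each level carries a wide counting error. The log2 fold change was 2.10 (standard error 0.295), or 4.28-fold.

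Tcrg-C2, which joins the reversed γ cluster on the minus strand, was at 20.8, 25.2, 20.4 and 13.7 CPM in the libraries labelled Alox15-/- and at 6.27, 7.37, 11.4 and 6.09 CPM in those labelled WT. WT 3 was the highest WT library and lay just below library 4 of those labelled Alox15-/-, which was again the lowest of its group. Its log2 fold change of 1.31 (standard error 0.232), or 2.47-fold, was the smallest of the 4 γδ genes.

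Tcrg-C4, the γ constant gene with the most distinct sequence, was at 25.3, 31.8, 26.7 and 13.8 CPM in the libraries labelled Alox15-/- and at 6.59, 5.61, 7.77 and 5.25 CPM in those labelled WT. Its groups did not overlap, with library 2 the highest and library 4 the lowest of those labelled Alox15-/-. The log2 fold change was 1.90 (standard error 0.239), or 3.74-fold. In this bulk RNA, more cells that carry a γδ transcript and more transcript per cell cannot be told apart.

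**Figure D1:**
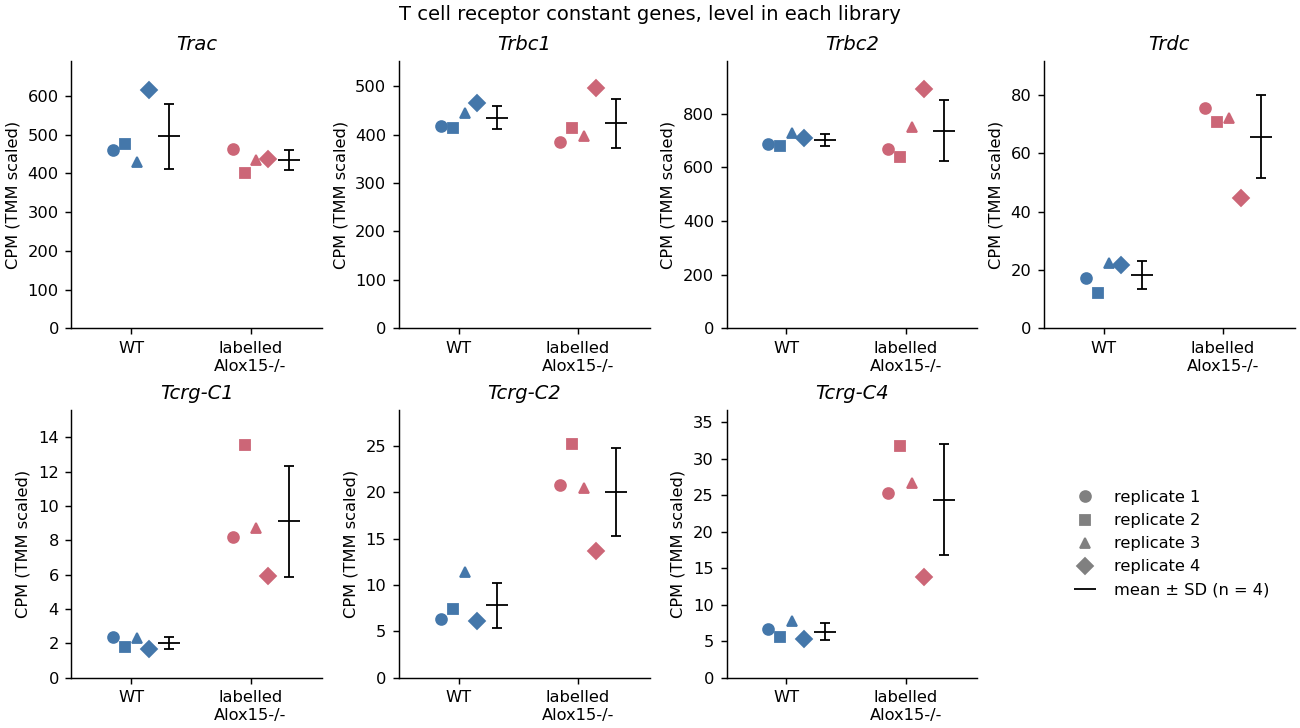
Level of each constant gene in CPM (TMM scaled, linear axes from 0) in the 4 WT libraries (blue) and the 4 libraries labelled Alox15-/- (red), with symbols for replicate number and the mean ± SD of each group in black. Trac, Trbc1 and Trbc2 overlap between the groups, whereas Trdc, Tcrg-C1, Tcrg-C2 and Tcrg-C4 do not, and the red diamond, library 4, is the lowest red point in all 4 γδ panels.

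Of the 7 members, 4 were past the adjusted threshold of edgeR in the higher direction, where 1.05% of the tested genes were, and 0 in the lower one. The same 4 had groups that did not overlap, where 2.74% of the tested genes lay apart on the higher side and 2.51% on the lower side. These members were chosen by this contrast, and nothing is read from either count.

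Set against each other within a library, the 2 receptor kinds give a ratio that does not depend on library scaling. The assay counts a transcript by its 3′ end whatever its length, but how well each end is read differs by gene, so the ratio is compared between libraries only. For every 1000 counts on the 3 αβ genes, the 4 γδ genes took 85.5, 97.1, 80.9 and 42.7 counts in the libraries labelled Alox15-/- and 20.9, 17.1, 27.5 and 19.3 in those labelled WT. The means were 76.6 ± 23.6 and 21.2 ± 4.48 per 1000 (SD, n = 4), and the groups did not overlap. The log2 ratio differed by 1.81 between the groups. Leaving out each library in turn moved this difference to between 1.68 and 2.07, the latter without library 4 of those labelled Alox15-/-. Trdc alone took 162.7, 176.5, 165.8 and 102.1 counts per 1000 on Trac in the libraries labelled Alox15-/- and 37.9, 25.2, 52.4 and 35.1 in those labelled WT.

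**Figure D2:**
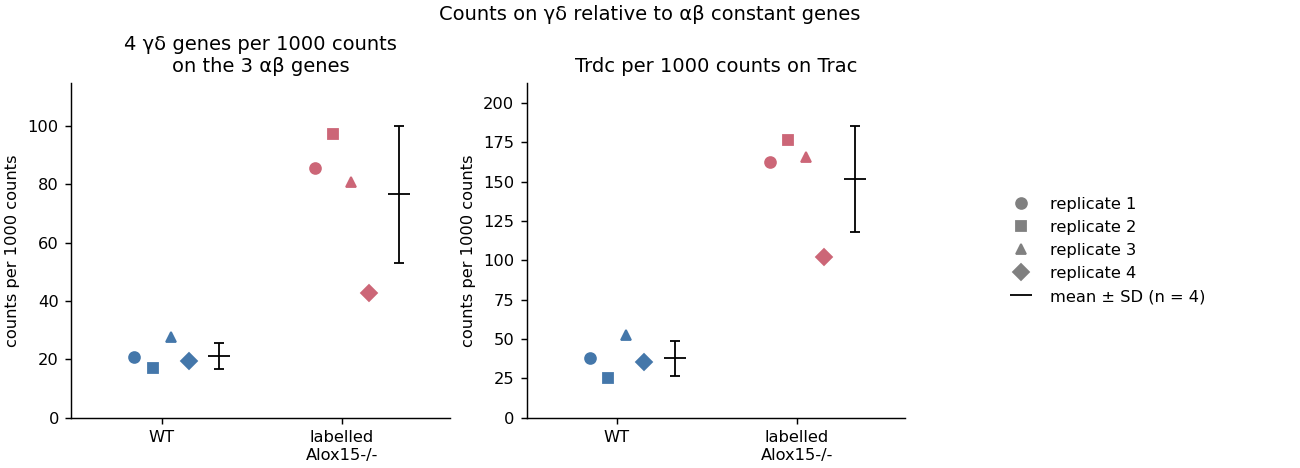
Counts on the 4 γδ constant genes per 1000 counts on the 3 αβ constant genes (left) and on Trdc per 1000 counts on Trac (right) in each WT library (blue) and each library labelled Alox15-/- (red), with the mean ± SD in black. On the left the red points run from 42.7 to 97.1 and the blue points from 17.1 to 27.5, and library 4 is the lowest red point in both panels.

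Within the γδ arm, the balance of δ to γ and the shares of the γ copies were compared between the groups as a description. The counts on the 3 γ genes were 0.811 ± 0.128 times those on Trdc under the label Alox15-/- and 0.914 ± 0.257 times under WT (SD, n = 4). Tcrg-C2 took 37.9% ± 2.28 of the γ counts under the label Alox15-/- and 47.8% ± 5.05 under WT (SD, n = 4). Its highest share among the former, 40.9% (exact 95% Clopper-Pearson interval 34.6% to 47.6%), lay next to its lowest among the latter, 41.2% (31.3% to 51.7%), so these 2 libraries differed by less than their counting error, and the difference between the groups was not tested. Tcrg-C1 had 16.9% ± 1.91 and 12.8% ± 1.99, and Tcrg-C4 had 45.2% ± 2.80 and 39.5% ± 3.08 of the γ counts (SD, n = 4), the label Alox15-/- first and WT second, with overlapping ranges for both. Tags have no molecular identifier stated here, so these intervals cover counting error only.

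**Figure D3:**
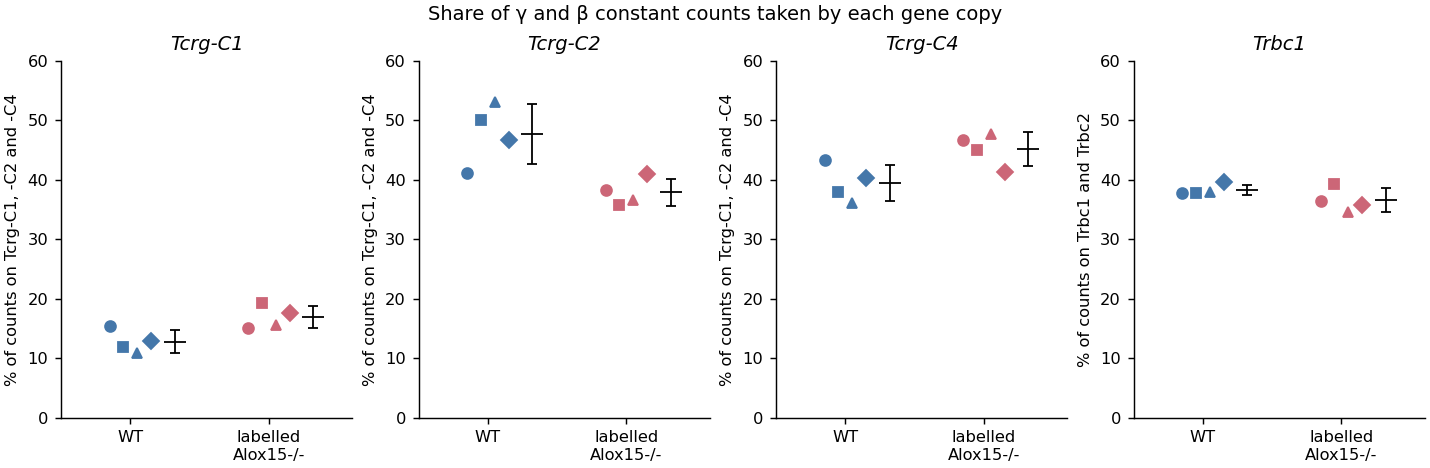
Share of the counts on Tcrg-C1, Tcrg-C2 and Tcrg-C4 taken by each of them, and share of the counts on Trbc1 and Trbc2 taken by Trbc1, in percent, for each WT library (blue) and each library labelled Alox15-/- (red), with circles, squares, triangles and diamonds for replicates 1 to 4 and the mean ± SD (n = 4) in black. Tcrg-C2 took 41.2% or more in the WT libraries and 40.9% or less in those labelled Alox15-/-, and the other 3 shares overlap.

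The variable, diversity and joining segments that recombination places before the constant genes lie far from the 3′ end and held few counts. The γ and δ segments came to 6 rows and 9 counts over all 8 libraries, 5 in those labelled Alox15-/- and 4 in those labelled WT, with 0 to 3 counts in any library. Their summed log2(CPM + 0.5) differed by 0.22 between the groups (two-sided exact permutation test, p = 0.714, where the smallest p that 4 libraries against 4 allow is 0.0286). A count of 0 allows up to 3 counts, or 0.303 to 0.814 CPM in these libraries, so a difference in γδ segments was not detectable at this depth.

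The α and β segments came to 99 rows and 533 counts, with 35 to 88 counts in each library labelled Alox15-/- and 61 to 114 in each WT library. Their summed level was 10.6 ± 2.92 and 11.7 ± 0.713 CPM (SD, n = 4), a difference of -0.18 in log2(CPM + 0.5) (two-sided exact permutation test, p = 0.429). The most counted segment was Traj27, an α joining segment, with 7, 6, 4 and 15 counts in the libraries labelled Alox15-/- and 11, 15, 20 and 10 in those labelled WT. Traj18, the joining segment of the invariant receptor of natural killer T cells, held 9, 3, 1 and 14 counts in the libraries labelled Alox15-/- and 5, 3, 10 and 8 in the WT libraries. Both segments overlapped between the groups.

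The other genes of the receptor complex passed the test in neither direction. Of 9 genes for CD3 chains, co-receptors, the pre-TCR α chain and the remaining γ constant gene, 7 were tested and 0 were past the adjusted threshold, in edgeR and in DESeq2, against 1.24% of all tested genes in edgeR. Their median log2 fold change was -0.01, as it was over all tested genes, and 4 of the 7 had an unadjusted p under 0.05 in edgeR, as had 7.84% of all tested genes. Cd3d, Cd3e and Cd247, which encode chains of the CD3 complex, had log2 fold changes of 0.12, 0.08 and -0.01.

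Cd3g, the γ chain of the CD3 complex and not of the γδ receptor, was at 152.1, 162.0, 161.3 and 169.8 CPM in the libraries labelled Alox15-/- and at 137.5, 139.7, 132.1 and 111.0 CPM in those labelled WT. Its groups did not overlap, as for 5.25% of the tested genes in either direction, but its log2 fold change of 0.31 (standard error 0.10) missed the threshold (adjusted p = 0.296, edgeR). Cd4, the co-receptor of helper T cells, had a log2 fold change of -0.32 with groups that did not overlap. The co-receptor genes of cytotoxic T cells, Cd8a and Cd8b1, had log2 fold changes of -0.69 (adjusted p = 0.56, edgeR) and -0.65 (adjusted p = 0.205, edgeR). Cd8b1 stood at 16.7 ± 3.04 CPM under WT and 10.6 ± 2.18 CPM under the label Alox15-/- (SD, n = 4), and of the alternatives run it passed the threshold only where no filter on low counts was set.

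The γ constant gene Tcrg-C3, outside the members, and the pre-TCR gene Ptcra were below the filter. Tcrg-C3 held 3, 3, 2 and 4 counts in the libraries labelled Alox15-/- and 1, 0, 2 and 0 in those labelled WT. It shared windows of its sequence with Tcrg-C1 and Tcrg-C2, and no level is compared at so few counts. The recombinase gene Rag1, on in developing lymphocytes, had 0 counts in all 4 libraries labelled Alox15-/- and 1, 0, 3 and 0 in those labelled WT, and of the recombination list no gene passed the filter.

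Genes of proximal receptor signalling likewise passed in neither direction. All 15 were tested, with a median log2 fold change of -0.16. Past the adjusted threshold were 0 in edgeR or in DESeq2, where the share over all tested genes was 1.24% in edgeR. A list this short can hold 0 at such a share, so nothing is read from that count. Before adjustment, edgeR gave 2 of the 15 a p below 0.05, compared with 7.84% of all tested genes. Lck, the kinase that starts the signal, was at 552.1 ± 51.7 CPM under the label Alox15-/- and 628.9 ± 21.0 CPM under WT (SD, n = 4), a log2 fold change of -0.19. Ptprc, the phosphatase CD45 that keeps Lck active, had -0.16, and Lat, the adaptor that gathers the downstream enzymes, had 0.09. The smallest adjusted p of the list was 0.574.

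Of a list of other genes used by γδ T cells, those that could be tested passed in neither direction. Of 15 transcription factors, receptors and cytokines of these cells, 5 passed the filter, with a median log2 fold change of -0.08. The adjusted threshold was passed by 0 of the 5 in edgeR or in DESeq2, against 1.24% of all tested genes in edgeR. An unadjusted p under 0.05 in edgeR was reached by 0, against 7.84% of all tested genes. Most genes of the list are also used by helper T cells, and its summed level was 82.1 to 90.1 CPM in the libraries labelled Alox15-/- and 53.8 to 140.2 CPM in those labelled WT. Maf, a transcription factor of IL-17 producing cells, had a log2 fold change of 0.44 (standard error 0.234), and Id3, a factor set by receptor signal strength, had -0.37 (standard error 0.287).

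Of the genes more particular to γδ cells, Sox13 held 1, 0, 2 and 0 counts in the libraries labelled Alox15-/- and 5, 2, 4 and 1 in those labelled WT. Cd163l1, the gene of the scavenger receptor SCART1 of IL-17 producing γδ cells, held 2, 4, 3 and 0 counts against 0, 0, 1 and 0. Both are too few to compare at this depth. The cytokine genes Il17a and Il17f are named here after their values were seen. Il17a held 17, 10, 17 and 1 counts in the libraries labelled Alox15-/- and 1, 2, 6 and 9 in those labelled WT, below the filter. Il17f was at 5.79, 4.07, 5.11 and 2.16 CPM in the libraries labelled Alox15-/- and at 1.41, 1.28, 1.11 and 9.23 CPM in those labelled WT. For both cytokines WT 4 was the highest WT library, and the groups overlapped. With all 8 libraries Il17f had a log2 fold change of 0.51 and did not pass (adjusted p = 0.884, edgeR). Without WT 4, its highest library, Il17f had a log2 fold change of 1.72 (adjusted p = 0.0324, edgeR). Nothing is read from that pass, because the gene was named after its values were seen.

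Natural killer (NK) cells share receptors and granule proteins with γδ T cells, and some genes of this list moved with the γδ constant genes. Of 16 NK markers 10 could be tested, of which 5 rose under the label Alox15-/- against 1.05% of all tested genes, with a median log2 fold change of 1.29 over the 10. They were Tyrobp, an adaptor of activating receptors (3.03, adjusted p = 2.38e-04), Gzmb, a granzyme that activated T cells also make (2.74, adjusted p = 0.00105), and Klrc1, a subunit of the inhibitory receptor NKG2A (2.71, adjusted p = 0.0159). Fcer1g, an adaptor that mast cells and myeloid cells also use (2.35, adjusted p = 0.00129), and Klrd1, the partner chain of Klrc1 (1.36, adjusted p = 0.0278), were the other two, all by edgeR's quasi-likelihood test. DESeq2 also called the chemokine gene Ccl5 (log2 fold change 1.22, adjusted p = 0.0478), which did not pass in edgeR (1.21, adjusted p = 0.116). The more particular NK gene Ncr1 held 3, 1, 2 and 0 counts in the libraries labelled Alox15-/- and 0, 0, 4 and 6 in those labelled WT. A gene could pass the filter through the group where it was high alone, and the list was chosen with earlier results known. Nothing is therefore read from the count of NK markers past the threshold.

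**Figure D4:**
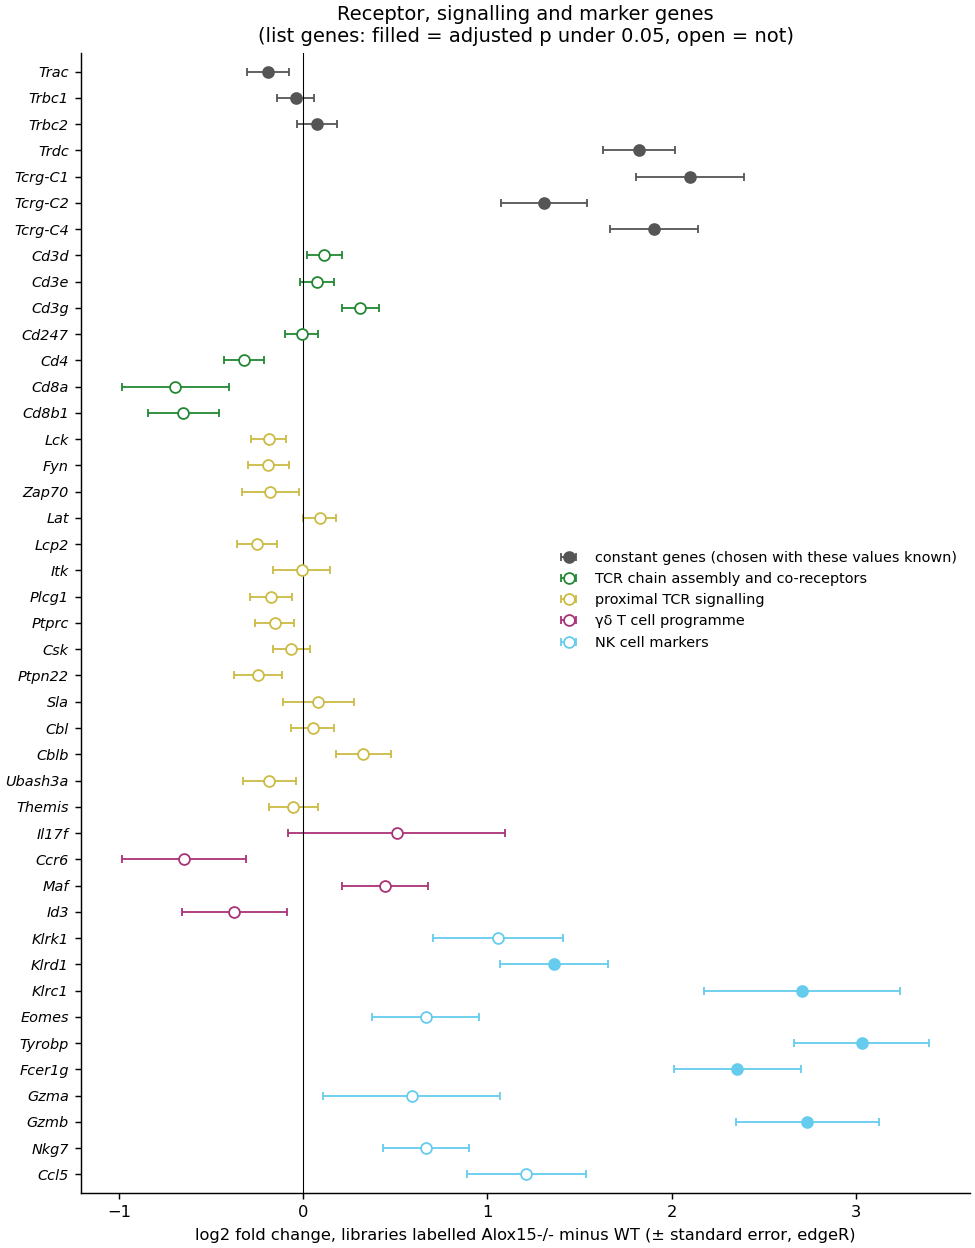
Log2 fold change (libraries labelled Alox15-/- minus WT) with its standard error from edgeR for the 7 constant genes and for tested genes of 4 lists; filled list symbols are past an adjusted p of 0.05 and open ones are not, and the constant genes are drawn in grey without a call. The 4 γδ constant genes lie between 1.31 and 2.10, the receptor complex and signalling genes between -0.69 and 0.33, and 5 NK markers are filled.

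Summed markers of erythroid cells, mast cells and basophils, eosinophils and myeloid cells lay higher under the label Alox15-/- without overlap, while summed NK markers overlapped and summed B cell markers lay lower. The summed NK markers were at 136.1, 203.6, 144.7 and 73.4 CPM in the libraries labelled Alox15-/- and at 74.0, 48.4, 45.1 and 60.02 CPM in those labelled WT. Library 4, the lowest of its group for all 4 γδ genes, lay inside the WT range for this list. Erythroid markers, of which 5 of 6 tested were higher against the same 1.05%, summed to 918.2 to 3517 CPM in the libraries labelled Alox15-/- and 71.3 to 139.6 CPM in those labelled WT. Car2, the tested erythroid gene that did not pass, had a log2 fold change of -0.34 (adjusted p = 0.857, edgeR).

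Mast cell and basophil markers, of which 7 of 7 tested were higher, summed to 110.5 to 330.6 and 27.0 to 47.6 CPM in the libraries labelled Alox15-/- and WT. Eosinophil markers, with 2 of 2 tested higher, summed to 20.3 to 72.5 and 1.25 to 10.4 CPM. Myeloid markers, with 5 of 6 tested higher, summed to 37.7 to 301.8 and 9.18 to 14.1 CPM. In each of these lists library 4 was the lowest of those labelled Alox15-/-, as it was for the γδ genes.

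None of these lists is made of γδ genes, and their part in the level of the γδ constant genes was not tested. A gene could pass the filter through the group where it was high alone, and the lists were chosen with earlier results known. Nothing is therefore read from the counts of genes past the threshold in these marker lists. Among the markers at 0 in some libraries were Ncr1 (1 labelled Alox15-/- and 2 WT), the eosinophil genes Ear2 (1 and 4), Siglecf (2 and 3) and Ccr3 (2 and 2), and the neutrophil gene S100a9 (0 and 1). Ccr3 went against its list, with 39 counts (6.25 CPM) in WT 2 and at most 3 counts in any other library. It made up most of the eosinophil sum of 10.4 CPM in WT 2. B cell markers summed to 5.55 to 8.14 CPM in the libraries labelled Alox15-/- and 8.31 to 21.2 CPM in those labelled WT. Of the 2 tested, Ms4a1 was lower (log2 fold change -2.64), where 0.197% of the tested genes were, and Cd79b did not pass (0.11, adjusted p = 0.967, edgeR). Markers of NK-T and MAIT cells (2 tested) and of CD8 T cells (4 tested, among them Cd8a and Cd8b1) had 0 genes past the threshold in edgeR, against 1.24% of all tested genes. At an unadjusted p under 0.05 in edgeR were 1 and 3 of them, against 7.84% of all tested genes. Slamf6 and Cd160, the receptor genes tested of the former list, had log2 fold changes of 0.32 and -0.02, and Runx3, a transcription factor of CD8 T cells, had 0.03. Eomes, also in the CD8 list, had 0.66, where Cd8a and Cd8b1 were lower. Of 7 Treg genes, Itgae, which encodes the integrin CD103 that γδ and CD8 T cells of epithelia also carry, was higher (log2 fold change 1.15, adjusted p = 0.0042, edgeR) and 6 did not pass.

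**Figure D5:**
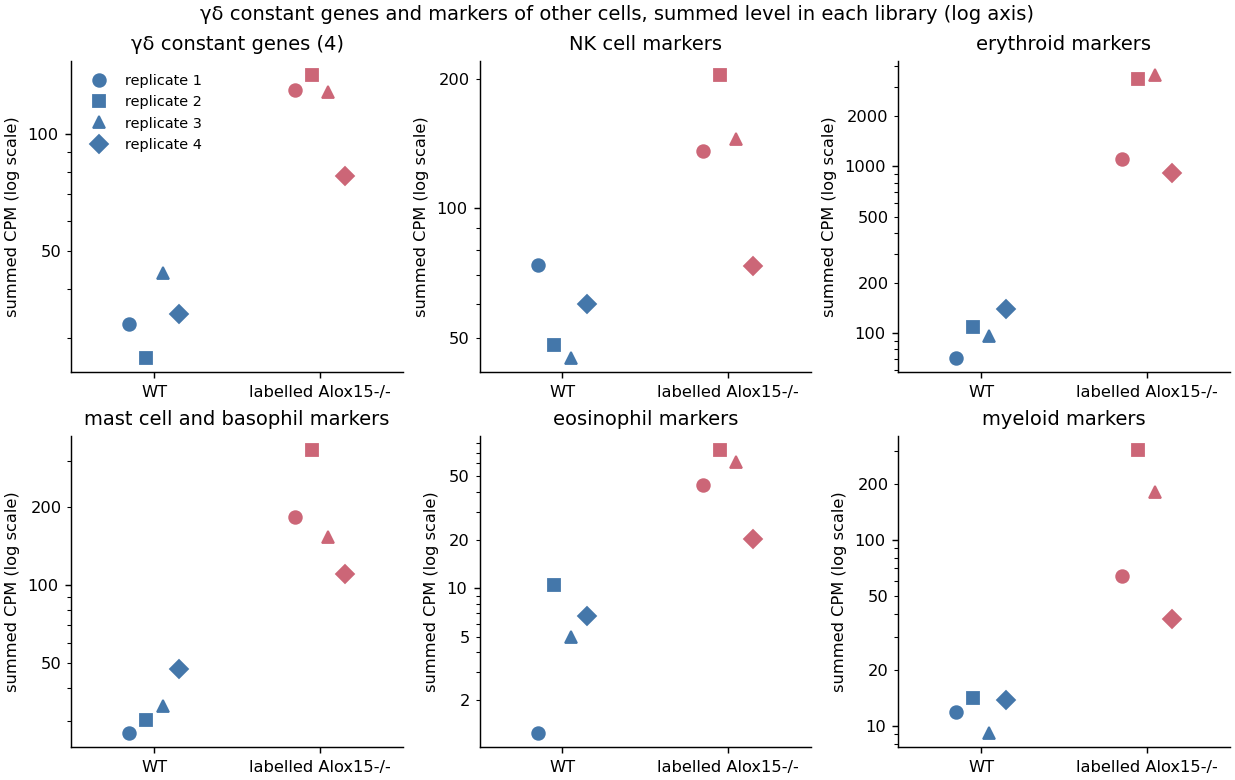
Summed CPM (log axes) of the 4 γδ constant genes and of 5 marker lists in each WT library (blue) and each library labelled Alox15-/- (red), with symbols for replicate number. The red points lie above the blue ones in every panel but the NK markers, where library 4 at 73.4 CPM falls below WT 1 at 74.0 CPM, and library 4 is the lowest red point in every panel.

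Finally, the tested genes whose pattern over the 8 libraries was most like that of the summed γδ constant genes were found by the root mean square difference of their centred log2 CPM. They were Gm4070 (0.321), Lilrb4a (0.324), Xaf1 (0.33), Ube2l6 (0.339) and Cxcl16 (0.34), where the median over the tested genes was 0.962. The members that form the sum lay at 0.131 for Trdc, 0.154 for Tcrg-C4, 0.224 for Tcrg-C1 and 0.298 for Tcrg-C2, and the αβ genes at 0.944 for Trbc2, 0.982 for Trbc1 and 1.04 for Trac. All 5 were higher in every library labelled Alox15-/- than in any WT library. Xaf1 and Ube2l6 are genes that interferon induces, Lilrb4a encodes an inhibitory receptor of myeloid and mast cells, and Cxcl16 a chemokine. Lilrb4a was at 18.1, 30.1, 16.8 and 8.78 CPM in the libraries labelled Alox15-/- and at 3.76, 4.80, 4.24 and 4.41 CPM in those labelled WT, with library 2 highest and library 4 lowest of the former, as for Tcrg-C4. The choice was made on the same libraries, so the likeness is a description over 8 points that share their depth and scaling.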

How the data were processed

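RNA of mouse Tregs was profiled by MACE-seq in 4 libraries labelled Alox15-/- and 4 labelled WT. The table the authors deposited holds raw, unnormalized counts in 28239 rows named by gene symbol, 2 of them with a repeated symbol. Submitters' processing notes name Bowtie, edgeR and GRCm38. Their versions, the counting tool, the use of strand and the removal of duplicates are not given in the sources used here. A MACE-Seq Kit is named in the methods and a small RNA kit of the same company in the labels.

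Tests covered the 12700 genes that reached 2 CPM in 4 or more libraries, following the filter of the study's methods. TMM scaling and the two-sided quasi-likelihood test of edgeR 4.0.16 with Benjamini-Hochberg adjustment over all tested genes were used in R 4.3.3, without pairing (biological coefficient of variation 14.5%). Summed segments were compared by an exact permutation test on log2(CPM + 0.5). GENCODE transcripts and annotation of GRCm38 gave sequences and positions. On simulated data of 12538 genes, 198 of 200 genes that had been moved by 1.5 on the log2 scale were recovered, with 10 false calls.

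The members and gene lists were chosen with earlier results of these data known. Named genes were the members, Alox15, Foxp3, the CD3 and co-receptor genes, list genes past the threshold (at most 6 a list, or else the 3 of highest mean), segments with at least 10 counts in a library and the 5 nearest patterns. Genes of the erythroid, mast cell, eosinophil and myeloid lists are given as counts and sums, so not every gene that the rule names is reported here. Alternatives were other scalings, filters and pseudocounts, DESeq2 1.42.0, a replicate block, other sums and each library left out. Tables and figures used pandas 2.3.3, SciPy 1.17.1 and matplotlib 3.10.9 in Python 3.11.15.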

Additional observations from a re-analysis of the deposited data

Results flagged for a closer look

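In 9 of 126 group values examined, 1 library of the 4 stood far from the other 3 by Dixon's criterion for 4 values, which chance alone meets in about 1 group of 20. Trdc in library 4 of those labelled Alox15-/- was one of them, at 44.6 CPM where the next library had 70.6 CPM. Cd8a was low in the same library, at 2.88 CPM against a next value of 8.89 CPM. In WT 4, Trbc1 took 39.6% of the β constant counts (exact 95% Clopper-Pearson interval 38.3% to 40.9%) where the next WT library had 37.9%. WT 4 was also the highest of its group for the summed αβ segments (12.8 CPM, next 11.5 CPM), for Mcpt8 (15.5 CPM, next 6.05 CPM) and for Cma1 (0.42 CPM, next 0.32 CPM), the last under the 3-count limit of 0.63 CPM in that library. WT 3 was the highest for the summed NK-T and MAIT cell markers (53.6 CPM, next 45.5 CPM) and for Foxp3 (195.4 CPM, next 109.3 CPM). Gata2 in library 2 of those labelled Alox15-/- was at 24.4 CPM, where the next library had 9.17 CPM.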

How the results depend on the processing

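The 7 log2 fold changes of the members were recomputed under 14 alternatives each, and Trdc stayed between 1.67 and 1.98, Tcrg-C1 between 1.86 and 2.28, Tcrg-C2 between 1.18 and 1.58, Tcrg-C4 between 1.76 and 2.12 and Trac between -0.25 and -0.07. Trbc1 (-0.12 to 0.005) and Trbc2 (-0.03 to 0.14) took either sign. The difference between the groups in the log2 ratio of γδ to αβ counts was 2.03 for Trdc over Trac. It was 1.95 for all γδ genes over Trac, against 1.81 for the main ratio. Over all genes, 388 (298 higher, 90 lower) passed without a filter on low counts against 158, and 86 to 172 with a library left out, the fewest without library 2 of those labelled Alox15-/-. Leaving out library 1 (95 genes) or 3 (93 genes) of those labelled Alox15-/-, or WT 2 (105 genes), also moved the count by over 1.5 times. Fewer libraries enter these fits. DESeq2 called 194 genes. Without the filter, 1 gene of the receptor complex (Cd8b1, lower, adjusted p = 0.043, edgeR) and 1 of the γδ programme (Il17a, higher, adjusted p = 0.0386, edgeR) passed. With a library left out, the γδ programme had 0 to 1 genes past the threshold (Il17f, without WT 4). The shared α and δ variable segments held 44 counts over all libraries, against 9 on the γδ segments. The sum of both, mostly shared segments, differed by -0.68 between the groups (two-sided exact permutation p = 0.0571). The γδ segment difference without the shared segments ranged from -0.050 (without library 1 of those labelled Alox15-/-) to 0.38 with a library left out. The αβ segment difference ranged from -0.29 to 0.0020 (the latter without library 3 of those labelled Alox15-/-). The cause of these moves was not tested.

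With the replicate number as a block, 146 genes (126 higher, 20 lower) passed. Deviations of same-numbered libraries correlated at 0.07, 0.17, -0.18 and -0.02, so the numbers were not taken to pair the libraries. Depth limits Tcrg-C1, with 8 to 50 counts a library, and all segments.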
